A study of Mus musculus with 10 samples.

Results

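The genes described here encode the enzymes that cut, release and crosslink the extracellular matrix, and the inhibitors that hold those enzymes back. They were taken by name: every gene whose symbol in the transcript files begins with Mmp and a digit, is Timp and a digit, begins with Adamts, or is Lox or Loxl1 to Loxl4. The rule found 55 of the 54532 genes in the gene table. Mmp1a, an interstitial collagenase, also matches by name but was left out, since no transcript file gives it a reference name. They comprise 22 matrix metalloproteinases (MMPs), 4 tissue inhibitors of metalloproteinases (TIMPs), 19 ADAMTS proteases, 5 ADAMTS-like proteins without a protease domain, and 5 lysyl oxidases. MMPs are zinc proteases that are made as inactive precursors and together can cleave collagens, elastin and basement membrane. TIMPs bind active MMPs, and Timp3 also inhibits ADAMTS proteases. ADAMTS proteases include the procollagen N-proteinases, which trim newly made fibrillar collagen so that it can form fibrils, and the proteoglycanases, which cleave versican and aggrecan. Lysyl oxidases oxidise lysines of collagen and elastin, the step from which crosslinks form.

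The study asked how gene expression in the tissue around the pulmonary veins of the mouse left atrium depends on the T-box transcription factor Tbx5, which acts in the atria. All mice carried a tamoxifen-inducible Cre recombinase at Rosa26 on both chromosomes (R26creERT2/creERT2), which is expressed in many cell types and is not restricted to muscle. The 4 Ctrl mice were Tbx5+/+ and the 6 CKO mice were Tbx5flox/flox. Both groups received tamoxifen for 3 days at 6 weeks of age, and tissue was taken 1 week later, at 7 weeks. The piece was the left atrium without its appendage, with a short stump of vein. RNA sequencing gave 1 library per mouse, and the labels name no batch.

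Libraries summed to between 8602794 and 10040808 estimated counts. Over its whole length Tbx5 ranged from 89.61 to 158.5 CPM (counts divided by the TMM-scaled library total) among Ctrl libraries and from 167.1 to 425.2 CPM among CKO libraries, so its total was not lower in the CKO libraries (log2 fold change 1.00 ± 0.29 SE, edgeR adjusted p = 0.101). A total over the gene does not check the deletion, which removes exon 3 in this allele. Coverage of exon 3 of its main transcript, relative to the median exon of the same library, was 0.903 to 1.70 in Ctrl and 0.175 to 0.618 in CKO. Exon 3 was the exon of 9 at which the groups separated, and all 10 libraries matched their label there. Atrial muscle markers summed to 13100 to 20340 CPM in Ctrl and 4413 to 6582 CPM in CKO, with 5 of 6 genes called lower. Ventricular markers summed to 46.4 to 93.96 CPM and 311.8 to 758.6 CPM, with 1 of 3 tested genes called higher. Most of the ventricular sum was Myl3, at 34.87 to 78.23 CPM in Ctrl and 294.9 to 728.3 CPM in CKO. Myl2 ran from 0 to 9.83 CPM in Ctrl and 7.68 to 106.8 CPM in CKO. Hey2 did not rise (2.96 to 9.86 and 4.04 to 8.19 CPM), and Irx4 was at most 0.224 CPM. Ctrl 3 and CKO 4 held airway transcripts, with marker sums of 3930 and 6538 CPM against at most 226.2 CPM in the others. Xist was above 100 CPM in 5 libraries (Ctrl 1 and 2, CKO 1 to 3) and at most 6.44 CPM in the other 5.

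Of the 55 genes, 41 had enough counts to be tested. Another 7 were listed at 0 in every library (Adamts13, Adamts16, Mmp1b, Mmp7, Mmp8, Mmp10 and Mmp20), and 7 had at most 26 counts in any library (Adamts18, Adamts20, Mmp13, Mmp21, Mmp24, Mmp25 and Mmp27). The untested genes include all 3 interstitial collagenases on the list, Mmp1b, Mmp8 and Mmp13, of which Mmp13 reached at most 1.11 CPM. A count of 0 says only that a transcript was not detectable at this depth.

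Levels of different genes were compared per length, as TPM, which divides by transcript length and sums to the same total in every library. The tissue inhibitors led the list. Timp3, whose product is bound in the matrix, averaged 301 TPM over the 10 libraries, and Timp2, which also takes part in activating Mmp2 at the cell surface, 167 TPM. Mmp2, the gelatinase made mostly by fibroblasts, followed at 132 TPM, Loxl1, the lysyl oxidase of elastic fibres, at 94.7 TPM and Adamtsl2, a fibrillin-binding protein, at 82.3 TPM. Adamts1 averaged 69.4 TPM, Mmp23 59.3 TPM, Adamts10 52.9 TPM, Adamts2 52.2 TPM and Mmp14, the membrane-type protease that activates Mmp2, 35.2 TPM. At the low end of the tested genes were Mmp12 at 2.36 TPM, Mmp3 at 2.14 TPM, Adamts14 at 0.830 TPM and Adamts17 at 0.323 TPM.

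**Figure D1:**
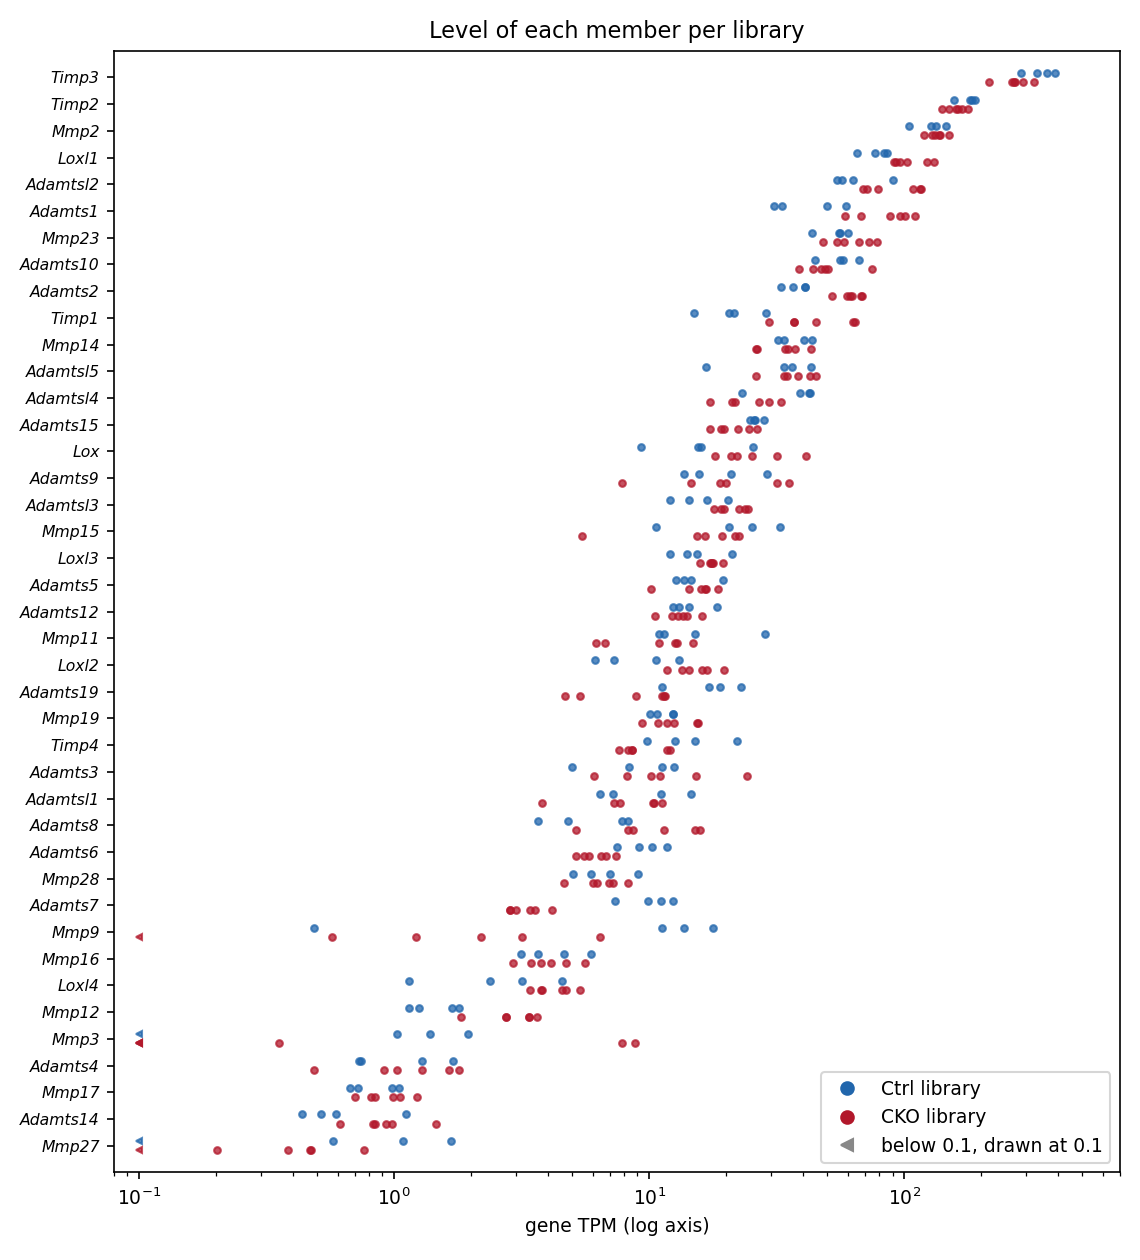
Gene TPM on a log axis for the 41 genes with a mean of 0.5 TPM or more, in order of their mean; each point is 1 library, blue for Ctrl (n = 4) and red for CKO (n = 6), and triangles stand for values below 0.1. Timp3 and Timp2 lie at the top of the range in every library, and the points of most genes mix the colours, whereas those of Adamts7, Adamts2 and Loxl1, among others, do not.

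Summed by family, the level of MMP transcripts was 296 ± 30.9 TPM (SD, n = 4) in Ctrl and 292 ± 24.9 TPM (n = 6) in CKO. The TIMP sum was 558 ± 35.6 TPM in Ctrl and 488 ± 29.1 TPM in CKO, and the ranges met at their edges, 515.2 to 588.5 TPM against 446.8 to 515.4 TPM. The ratio of the TIMP sum to the MMP sum was 1.91 ± 0.314 in Ctrl and 1.69 ± 0.209 in CKO, with overlapping ranges. The ADAMTS sum was 268 ± 18.4 TPM in Ctrl and 315 ± 24.6 TPM in CKO, and the highest Ctrl library, at 288.2 TPM, lay below the lowest CKO library, at 290.4 TPM. The lysyl oxidase sum was 122 ± 16.6 TPM in Ctrl and 170 ± 27.2 TPM in CKO, with ranges of 102.3 to 142.8 TPM and 141.6 to 212.2 TPM that overlapped in 1 library of each group. These sums are descriptions and were given no test; a few abundant genes make up most of each.

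**Figure D2:**
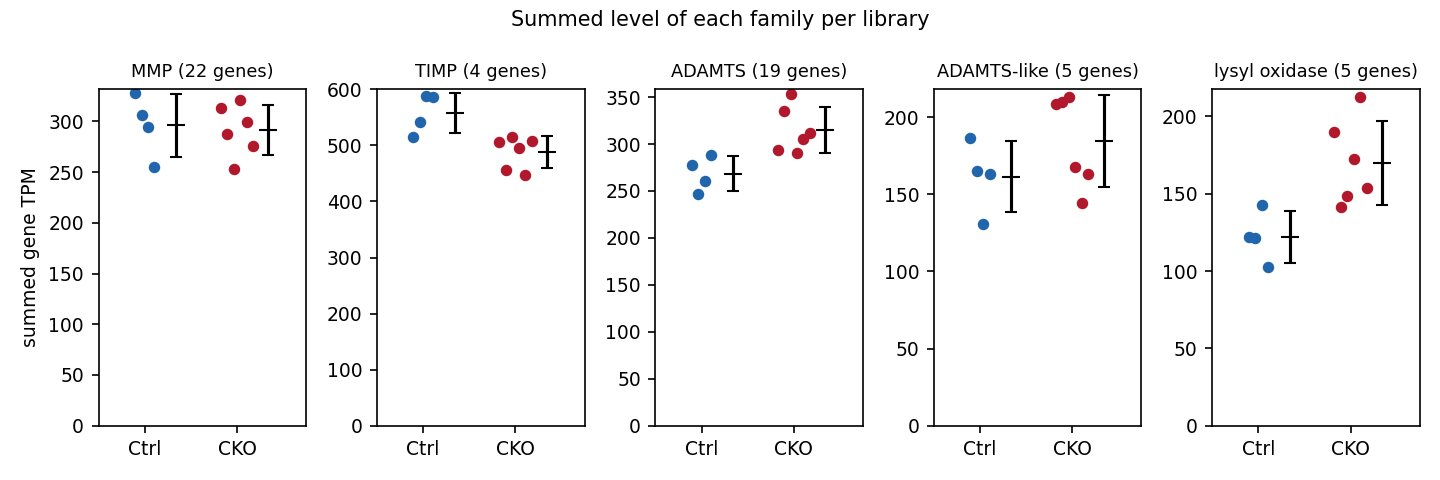
Summed gene TPM of each family per library, with the number of genes in brackets; points are libraries (Ctrl n = 4, CKO n = 6) and the black mark with its bar is the mean ± SD. The ADAMTS sums of the groups do not overlap (up to 288.2 TPM in Ctrl, from 290.4 TPM in CKO), the lysyl oxidase sums overlap narrowly, and the MMP sums overlap throughout.

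In the comparison of CKO with Ctrl, 3 of the 41 tested genes passed edgeR's quasi-likelihood test at an adjusted p under 0.05, against 2.8% of all 17752 genes tested. Adamts1 and Adamts2 were higher in CKO and Adamts7 was lower. In 6 genes the Ctrl and CKO libraries did not overlap in CPM, against 5.72% of all tested genes; beside those 3 they were Timp1, Loxl1 and Loxl3. Of the 6, 5 were higher in CKO and 1 lower, against 3.03% and 2.7% of all tested genes. Of the 41 genes 27 had a log2 fold change above 0, with a median of 0.28, against 46.6% of all tested genes and a median of -0.03. The unadjusted p was under 0.05 for 17 of the 41, against 17% of all tested genes. In bulk tissue, fewer cells of a type and less RNA per cell cannot be told apart, so a change here is a change in a gene's share of the tissue's RNA.

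**Figure D3:**
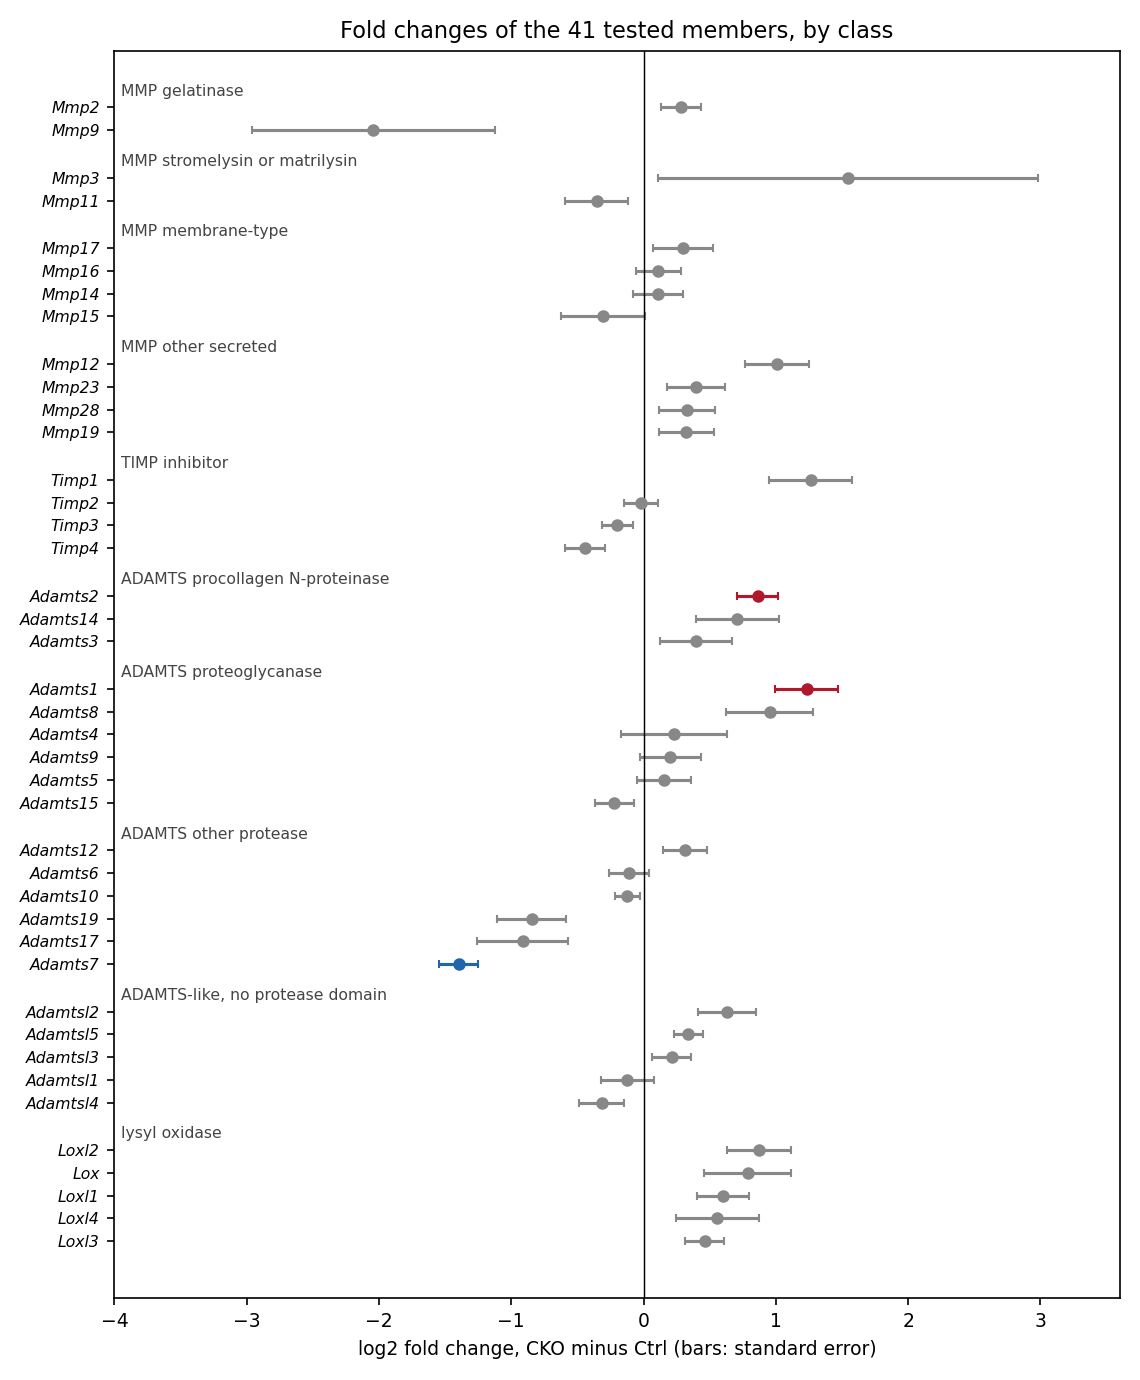
Log2 fold change (CKO minus Ctrl) of the 41 tested genes, grouped by what their products do; points are the edgeR estimates, bars the standard error, red and blue the genes past the adjusted threshold (higher and lower) and grey the others. Adamts1 and Adamts2 stand to the right and Adamts7 to the left, and all 5 lysyl oxidases lie above 0 without passing the threshold.

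Adamts7, on chromosome 9 (mm10, 90163069 to 90208071, plus strand), encodes a secreted protease known for cleaving cartilage oligomeric matrix protein and for its part in the vessel wall. It measured 21.02, 23.27, 15.99 and 19.71 CPM in Ctrl 1 to 4. In CKO it ran from 6.55 to 9.45 CPM with a median of 7.58 CPM. All 6 CKO libraries lay together at less than the lowest Ctrl library. The log2 fold change was -1.40 ± 0.15 (SE, edgeR adjusted p = 0.00065), and it stayed past the threshold when any 1 library was left out, at -1.48 to -1.31. It was -1.47 among the 5 libraries with high Xist and -1.28 among the 5 with low Xist. The last part of the gene, where it runs against Tbc1d2b on the other strand, may share reads with it. Tbc1d2b itself did not pass the test (0.11, adjusted p = 0.661). Of the Adamts7 transcripts only 1 reaches that stretch, and it averaged 0.0312 TPM, beside 6.05 TPM for the gene. The share of its TPM on the transcript with the highest level was 60.2% to 72.0% in Ctrl and scattered from 12.6% to 91.2% in CKO. The ADAMTS proteases outside the procollagen and proteoglycan classes had a median log2 fold change of -0.48 over 6 tested genes, 5 of them below 0. Of these only Adamts7 passed the test. Adamts17 stood at -0.91 ± 0.35 (adjusted p = 0.213), from a mean of 1.44 CPM in Ctrl. Adamts10, which binds fibrillin, stood at -0.12 ± 0.10 (adjusted p = 0.546), and Adamts12 at 0.31 ± 0.17 (adjusted p = 0.376). Adamts19, picked after its values were seen, stood at -0.84 ± 0.26 (adjusted p = 0.129).

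Adamts2, on chromosome 11 (50602084 to 50807573, plus strand), encodes the main N-proteinase of procollagens I, II and III. It measured 134.7, 133.7, 138.5 and 96.8 CPM in Ctrl 1 to 4. The CKO libraries ranged from 176 to 284.6 CPM with a median of 220.6 CPM. Each CKO library lay above every Ctrl library, and Ctrl 4 lay apart below the other Ctrl libraries. The log2 fold change was 0.86 ± 0.16 (adjusted p = 0.0155), 0.82 with high Xist and 0.93 with low Xist. Without Ctrl 2 the adjusted p was 0.0524 and the log2 fold change 0.90, in a range of 0.00971 to 0.0524 over the 10 fits with 1 library left out. The other N-proteinases, Adamts3 and Adamts14, had log2 fold changes of 0.40 ± 0.27 (adjusted p = 0.487) and 0.71 ± 0.31 (adjusted p = 0.278), so all 3 stood above 0 and 1 passed.

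Adamts1, on chromosome 16 (85793827 to 85803113, minus strand), encodes a versican- and aggrecan-cleaving protease that is also known in endothelial cells. It measured 73.3, 68.1, 100.5 and 91.9 CPM in Ctrl 1 to 4. Values in CKO lay between 136.6 and 304.7 CPM with a median of 183.5 CPM. The groups did not overlap in CPM, and CKO 5 was the highest library. In TPM they met at their edges, at 30.9 to 59.1 TPM in Ctrl and 58.5 to 110 TPM in CKO. The log2 fold change was 1.23 ± 0.24 (adjusted p = 0.0203), 1.45 with high Xist and 1.09 with low Xist. The call was lost without Ctrl 1, Ctrl 2 or Ctrl 4, at adjusted p-values of 0.0797, 0.0832 and 0.0568 and fold changes of 1.18, 1.16 and 1.28. Endothelial markers summed to 1020 to 1699 CPM in Ctrl and 1937 to 2672 CPM in CKO. Of these 6 genes 1 was called higher, and none was at 0. The largest part of each sum was Vwf, at 416.3 to 893.7 CPM in Ctrl and 1043 to 1672 CPM in CKO. Pecam1 did not overlap between the groups either (233.8 to 317.1 and 330.7 to 421.8 CPM), whereas Cdh5, Kdr, Tek and Emcn did. The part of these markers in the result was not tested.

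Next to Adamts1, 53059 bases away on the same strand, lies Adamts5, another proteoglycanase. Adamts5 had a log2 fold change of 0.15 ± 0.20 (adjusted p = 0.739), with a mean of 80.4 ± 22.7 CPM in Ctrl and 89.4 ± 19.7 CPM in CKO. The pair of Adamts15 and Adamts8 on chromosome 9, 20109 bases apart and on opposite strands, differed in sign, at -0.22 ± 0.15 and 0.95 ± 0.33, and neither passed the test (adjusted p = 0.478 and 0.167). Among the 6 tested proteoglycanases 5 stood above 0, with a median of 0.22.

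The 5 ADAMTS-like genes, whose proteins sit in the matrix without cutting it, gave no call. The most abundant, Adamtsl2, measured 169.8, 106.1, 117.3 and 99.1 CPM in Ctrl 1 to 4. Across CKO the range was 124.2 to 236.3 CPM with a median of 199.7 CPM. The groups overlapped through Ctrl 1, and the log2 fold change was 0.63 ± 0.22 (adjusted p = 0.176). Adamtsl5 stood at 0.34 ± 0.11 (adjusted p = 0.148), and the class as a whole ran from -0.32 to 0.63.

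**Figure D4:**
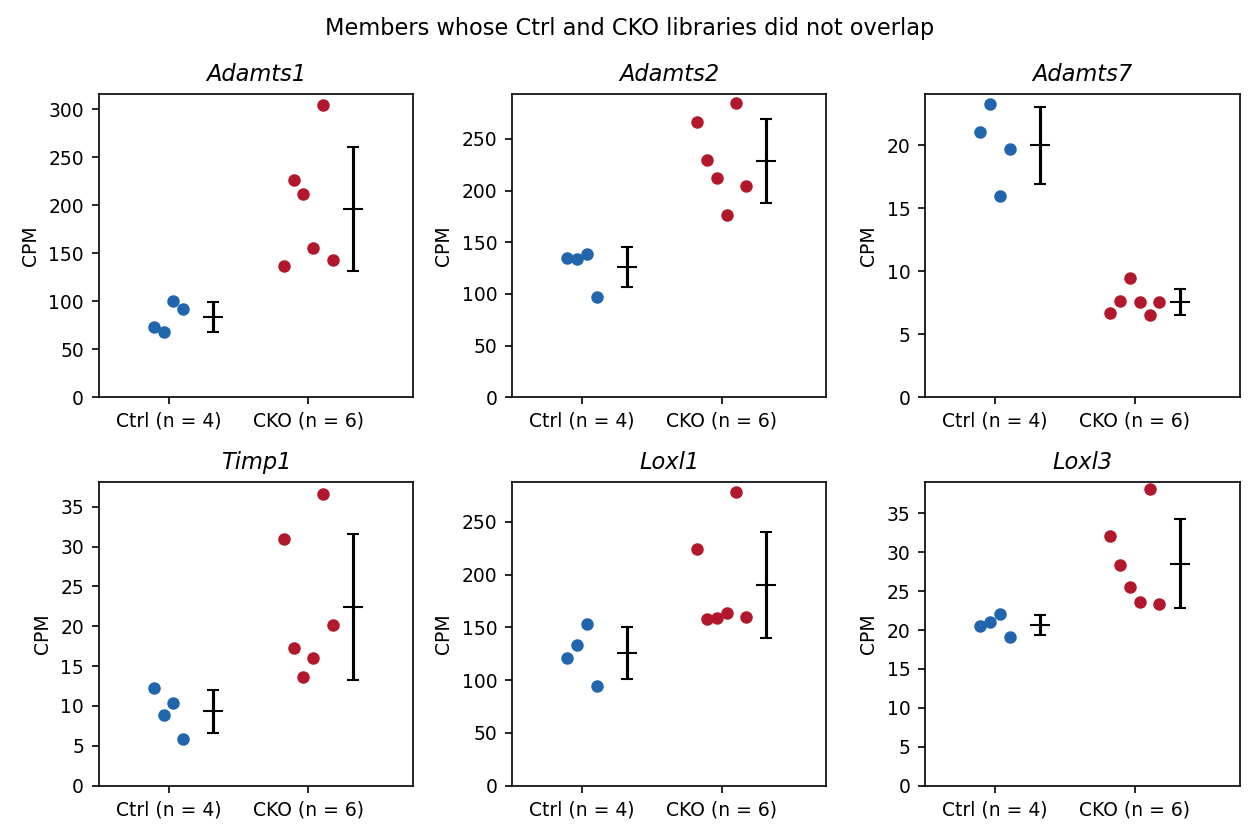
CPM per library of the 6 genes whose 4 Ctrl libraries (blue) and 6 CKO libraries (red) did not overlap; the black mark and bar are the mean ± SD of each group, and every axis starts at 0. Adamts7 falls from about 20 to below 10 CPM, and the other 5 genes are higher in every CKO library, with CKO 5 highest in each.

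Among the tissue inhibitors no gene passed the test. Timp1, the inducible and soluble member on chromosome X (20870166 to 20874735, plus strand), measured 12.2, 8.85, 10.3 and 5.87 CPM in Ctrl 1 to 4. In CKO it ran from 13.6 to 36.6 CPM with a median of 18.7 CPM. The groups did not overlap, with the nearest libraries, Ctrl 1 and CKO 3, close to each other. The log2 fold change was 1.26 ± 0.31 with an adjusted p of 0.0610 (from 0.00267 with DESeq2 to 0.507 over 22 other settings), and it was 0.97 with high and 1.597 with low Xist. Timp1 lies inside the Syn1 gene on the opposite strand, as Timp3 lies inside Syn3 and Timp4 inside Syn2; none of the 3 synapsin genes passed the test (log2 fold changes of -1.01, -0.83 and -0.52).

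The abundant inhibitors stood nearer 0. Timp3 measured 621.2, 731.3, 908.5 and 778.4 CPM in Ctrl 1 to 4. The CKO libraries ranged from 591.8 to 750.9 CPM with a median of 657.5 CPM. Its groups overlapped, at a log2 fold change of -0.20 ± 0.12 (adjusted p = 0.417). Timp2 stood at -0.02 ± 0.13 (adjusted p = 0.959), and its sign changed under several settings. Timp4, the inhibitor most tied to heart muscle, stood at -0.44 ± 0.15 (adjusted p = 0.165).

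The lysyl oxidases all stood above 0, from 0.46 to 0.87 with a median of 0.60, and none passed the test with edgeR. Loxl1, on chromosome 9 (58287738 to 58313186, minus strand), measured 121.5, 133.3, 153.2 and 94.8 CPM in Ctrl 1 to 4. Values in CKO lay between 157.8 and 278.7 CPM with a median of 161.9 CPM. The groups did not overlap but nearly met, since Ctrl 3 lay just under the 4 lowest CKO libraries, and the log2 fold change was 0.60 ± 0.20 (adjusted p = 0.152). Loxl3, on chromosome 6 (83034173 to 83052562, plus strand), measured 20.5, 21.1, 22.1 and 19.1 CPM in Ctrl 1 to 4. Across CKO the range was 23.4 to 38.1 CPM with a median of 27.0 CPM. Its groups did not overlap in CPM either, at 0.46 ± 0.15 (adjusted p = 0.138). In TPM every CKO library lay within the Ctrl range, at 15.86 to 19.45 TPM against 12.08 to 21.04 TPM.

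Loxl2, which acts on collagen IV, measured 33.6, 27.5, 20.9 and 14.5 CPM in Ctrl 1 to 4. In CKO it ran from 32.2 to 58.0 CPM with a median of 40.0 CPM. The groups overlapped through Ctrl 1 alone, and the log2 fold change was 0.87 ± 0.24 (adjusted p = 0.0918). It passed with DESeq2 (0.89, adjusted p = 0.0139), and stood at 0.48 with high and 1.40 with low Xist; over 22 other settings the adjusted p ran from 0.0139 to 0.401. Lox, the founding member of the family, measured 28.3, 20.1, 52.3 and 26.7 CPM in Ctrl 1 to 4. The CKO libraries ranged from 35.7 to 100.3 CPM with a median of 47.6 CPM. Ctrl 3 lay among the CKO libraries and CKO 5 far above the rest, and the log2 fold change was 0.79 ± 0.33 (adjusted p = 0.256). Among fibroblast markers 0 of 9 were called with edgeR, and their sums overlapped, at 7579 to 11620 CPM in Ctrl and 7539 to 10120 CPM in CKO. The largest part of each sum was Gsn, at 5275 to 7601 CPM in Ctrl and 3808 to 4996 CPM in CKO. The sum therefore does not describe the other markers. Dpt ranged higher in CKO (239.3 to 499.3 CPM in Ctrl, 417.7 to 792.4 CPM in CKO), and so did Col1a1 (279.8 to 467 and 451.2 to 917 CPM). Pdgfra did not (241.4 to 346.2 and 234.5 to 329.7 CPM).

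The metalloproteinases gave no call among 12 tested genes. Mmp2 measured 189.1, 168.7, 197.3 and 127.1 CPM in Ctrl 1 to 4. Values in CKO lay between 177 and 251.9 CPM with a median of 194.2 CPM. The groups overlapped, at a log2 fold change of 0.28 ± 0.15 (adjusted p = 0.360). The membrane-type proteases Mmp14 and Mmp15 stood at 0.11 ± 0.19 (adjusted p = 0.810) and -0.31 ± 0.32 (adjusted p = 0.660), Mmp19 at 0.32 ± 0.21 (adjusted p = 0.456), Mmp23 at 0.40 ± 0.22 (adjusted p = 0.384) and the stromelysin-like Mmp11 at -0.35 ± 0.24 (adjusted p = 0.484).

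Mmp12, the macrophage elastase, measured 2.22, 2.40, 4.33 and 3.43 CPM in Ctrl 1 to 4. Across CKO the range was 4.14 to 7.18 CPM with a median of 6.46 CPM. Only Ctrl 3 and CKO 1 overlapped, and the log2 fold change was 1.01 ± 0.24 with an adjusted p of 0.0531. Under 7 of 22 other settings it passed, among them the fit without Ctrl 3 and CKO 4 (1.19, adjusted p = 0.0432), and the adjusted p ran from 0.00308 to 0.587 over the 22. Macrophage markers were also higher in part, with 3 of 8 genes called higher, none at 0, and sums of 890 to 1850 CPM in Ctrl and 1335 to 2541 CPM in CKO; their part in the result was not tested.

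Mmp9, the gelatinase of leukocytes and other cells, varied widely within the groups. It measured 0.739, 12.3, 27.2 and 14.4 CPM in Ctrl 1 to 4. In CKO it ran from 0 to 9.91 CPM with a median of 2.16 CPM. Ctrl 1 lay within the CKO range, and the log2 fold change was -2.04 ± 0.92 (adjusted p = 0.288). It was -1.45 without Ctrl 3 (adjusted p = 0.418), -2.79 without CKO 4 (adjusted p = 0.144) and -2.19 without both (adjusted p = 0.216), and none of the 22 other settings gave a call. The highest library of each group was the one with airway transcripts, Ctrl 3 and CKO 4. Neutrophil markers summed to 383.2 and 452.1 CPM in these libraries and to at most 43.2 CPM elsewhere, nearly all of it from Ltf, a gene that glands also express, while Retnlg, Ly6g, Camp and Mpo were at 0 in every library. Their part in the values of Mmp9 was not tested.

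Mmp3, stromelysin 1, was carried by 2 libraries. It measured 0, 1.31, 0.999 and 1.66 CPM in Ctrl 1 to 4. The CKO libraries ranged from 0 to 10.3 CPM with a median of 0.165 CPM. CKO 4 and CKO 5 reached 6.87 and 10.3 CPM, and the other 4 CKO libraries reached at most 0.33 CPM, so the log2 fold change of 1.55 ± 1.44 (adjusted p = 0.616) described no typical library. It changed sign with limma-voom, to -0.49.

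Mmp3 and Mmp12 are the tested genes among 9 of the listed Mmp genes that form a cluster on chromosome 9 (7272514 to 7699585). Of these 9, 5 were at 0 in every library. RefSeq promoter windows on GRCm38.p6 were matched by symbol for 36 of the 55 genes. The 250 bases before the start are shown 5′ to 3′ for Adamts1, Adamts2 and Timp1, which were higher in every CKO library, and for Mmp12 and Mmp3, the tested genes of the cluster. They lie at chr16:85803114-85803363 on the minus strand for Adamts1, and on the plus strand at chr11:50601835-50602084 for Adamts2, chrX:20869916-20870165 for Timp1, chr9:7347124-7347373 for Mmp12 and chr9:7445572-7445821 for Mmp3. Capitals mark the matches found.
Adamts1: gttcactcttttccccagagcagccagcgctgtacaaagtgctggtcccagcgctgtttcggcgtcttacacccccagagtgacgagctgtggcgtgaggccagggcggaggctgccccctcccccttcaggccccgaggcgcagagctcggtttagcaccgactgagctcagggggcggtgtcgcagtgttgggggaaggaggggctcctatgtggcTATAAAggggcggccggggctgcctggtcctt
Adamts2: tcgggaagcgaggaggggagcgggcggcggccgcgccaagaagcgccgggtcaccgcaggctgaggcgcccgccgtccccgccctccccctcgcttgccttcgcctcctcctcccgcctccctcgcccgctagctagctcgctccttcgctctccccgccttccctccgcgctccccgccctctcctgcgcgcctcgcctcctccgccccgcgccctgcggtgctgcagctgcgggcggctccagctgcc
Timp1: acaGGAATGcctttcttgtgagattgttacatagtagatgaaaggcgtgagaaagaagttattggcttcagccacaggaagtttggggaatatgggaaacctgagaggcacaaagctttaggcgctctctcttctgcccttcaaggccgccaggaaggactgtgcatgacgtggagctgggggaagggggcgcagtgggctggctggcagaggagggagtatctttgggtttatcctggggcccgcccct
Mmp12: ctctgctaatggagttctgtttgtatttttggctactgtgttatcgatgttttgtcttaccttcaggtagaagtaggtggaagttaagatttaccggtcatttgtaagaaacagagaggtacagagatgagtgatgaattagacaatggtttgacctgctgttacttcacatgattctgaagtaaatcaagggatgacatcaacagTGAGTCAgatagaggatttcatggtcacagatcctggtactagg
Mmp3: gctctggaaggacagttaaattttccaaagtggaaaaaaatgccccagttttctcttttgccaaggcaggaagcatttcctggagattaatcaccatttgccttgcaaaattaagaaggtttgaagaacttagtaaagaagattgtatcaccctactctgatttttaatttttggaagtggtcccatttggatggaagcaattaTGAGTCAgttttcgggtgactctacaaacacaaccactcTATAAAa

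Motifs were searched as exact letters: the T-box motif GGTGTGA, the AP-1 site TGANTCA and the MCAT element GGAATG on both strands, and the TATA box TATAAA on the gene's own strand. The AP-1 site, the element through which growth factors and phorbol esters are known to act on MMP promoters, was found in the windows of 7 of the 36 genes (Mmp1b, Mmp3, Mmp7, Mmp10, Mmp12, Mmp13 and Mmp20), all of them in the chromosome 9 cluster, and in 6.75% of all 32851 windows. In Mmp12 it begins 44 and in Mmp3 46 bases before the RefSeq start, and the start of Mmp12 lies 32 bases from that of its most abundant transcript here. Of the genes with the site, Mmp1b, Mmp7, Mmp10 and Mmp20 were at 0 in every library, Mmp13 reached at most 1.11 CPM, and Mmp3 and Mmp12 were the tested ones. The TATA box was found in 9 of the 36 windows and in 7.59% of all; in Adamts1 it begins 32 bases before the start. The MCAT element was found in 2 of 36, Timp1 and Adamts13, against 12.6% of all. The T-box motif was found in 1 of 36, Mmp21, against 3.33% of all. The window of Adamts2 held none of the 4 motifs and was 78% G and C with 34 CpG, against a median of 52.4% over all windows. These matches describe the letters of the windows and no binding was measured.

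Transcript shares added little. In 38 genes with a value in every library the share of TPM on the most abundant transcript could be followed, and it was 100% throughout in 8. The groups' shares did not overlap in 2 of the 38, against 0.807% of 18598 genes followed in the same way, of which 35% were at 100% throughout. The 2 genes were picked after their values were seen: in Adamts12 the share was 44.2% to 56.7% in Ctrl and 60.5% to 73.9% in CKO, and in Mmp14 61.7% to 76.0% and 77.8% to 85.7%. Shares are StringTie's estimates, and no test was run on them.

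The substrates and partners of these enzymes were read from the same fit as 8 lists. Of 106 tested genes 8 were called higher and 1 lower, against 1.54% and 1.26% of all tested genes, and 84 stood above 0 with a median of 0.30. Among fibrillar collagens, the substrate of the N-proteinases and lysyl oxidases, 0 of 8 passed with edgeR, with a median log2 fold change of 0.65. Col3a1 (0.85 ± 0.26, adjusted p = 0.115) and Col1a2 (0.65 ± 0.19, adjusted p = 0.102) were higher in every CKO library than in any Ctrl library, and both passed with DESeq2 (adjusted p = 0.0160 and 0.0139). Versican, the proteoglycan that Adamts1 cleaves, was called higher: Vcan averaged 211 ± 29.6 CPM in Ctrl and 459 ± 138 CPM in CKO (1.12 ± 0.22, adjusted p = 0.0227), with groups that did not overlap. Without Ctrl 1, 2 or 4 its adjusted p was 0.0817, 0.0710 or 0.0821. Matn2, another of the 7 tested genes on the list of ADAMTS substrates, rose by 0.77 ± 0.13 (adjusted p = 0.0118). That list is not particular to Adamts1.

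Fibrillin 1, the scaffold of elastic fibres on which Loxl1 and Adamtsl2 act, rose as well. Fbn1 averaged 758 ± 169 CPM in Ctrl and 1713 ± 495 CPM in CKO (1.18 ± 0.23, adjusted p = 0.0213), and was the only 1 of 16 elastic fibre genes to pass; the call was lost without Ctrl 1, 2 or 4 or CKO 1 (adjusted p = 0.0622, 0.0673, 0.0614 and 0.0507). Col4a1 of the basement membrane rose by 0.71 ± 0.11 (adjusted p = 0.00799), 1 of 11 in its list. Of 18 genes of procollagen processing and modification, 2 rose, the lysyl hydroxylase Plod2 (0.69 ± 0.11, adjusted p = 0.00822) and the transglutaminase Tgm2 (0.76 ± 0.14, adjusted p = 0.0157), which lost its call without Ctrl 1 or 4 (adjusted p = 0.0533 and 0.0514). None of 21 protease activators and other matrix proteases passed, with the cathepsins Ctsb at 0.25 ± 0.13 (adjusted p = 0.348) and Ctsl at 0.24 ± 0.15 (adjusted p = 0.440).

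Among inhibitors outside the TIMP family, Pzp, a broad protease inhibitor of the alpha-2-macroglobulin family, fell from 8.81 ± 2.03 to 2.54 ± 0.85 CPM (-1.79 ± 0.27, adjusted p = 0.00643). Its groups did not overlap. Of 13 TGF-beta ligands and responses 1 passed, Postn, which averaged 154 ± 44.6 CPM over the Ctrl and 614 ± 295 CPM over the CKO libraries (2.00 ± 0.36, adjusted p = 0.0155); without Ctrl 2 or Ctrl 4 its adjusted p was 0.0601 or 0.0557.

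The authors' deposited table sets the same genes beside the left atrial appendage, whose own libraries were not analysed here. It lists 37 of the 55 genes. In the authors' deposited table, deletion in peri-pulmonary vein tissue changed 7 of the 37 at a false discovery rate under 0.05, against 5.5% of all 13646 listed genes: Adamts1, Adamts2, Timp1, Loxl2 and Mmp12 were higher and Adamts7 and Adamts19 lower. Those 5 higher and 2 lower genes stand beside 3.03% and 2.47% of all listed genes in the authors' deposited table. Its fold changes for these genes differed from the edgeR values above by at most 0.021. In the appendage 24 of the 37 were called in the authors' deposited table, 16 higher and 8 lower, against 34.7% of all listed genes, 16.8% higher and 17.9% lower.

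In the authors' deposited table the appendage values of the inhibitor Timp1 (2.96), of Lox (2.61) and Loxl2 (2.36), and of Adamts1 (1.95) and Adamts2 (1.86) headed the higher genes, beside 1.24, 0.77, 0.86, 1.21 and 0.84 around the pulmonary veins. All 5 lysyl oxidases were called higher in the appendage there, from 1.15 to 2.61. On the lower side the authors' deposited table gave -4.22 for Mmp9, -1.60 for Adamts7, -1.38 for Adamts19 and -1.36 for Timp4 in the appendage, beside -2.06, -1.41, -0.86 and -0.46. Of the genes called in each tissue in the authors' deposited table, 6 were shared and had the same sign (Adamts1, Adamts2, Adamts7, Adamts19, Loxl2 and Timp1), 85.7% of the peri-pulmonary vein list and 25% of the appendage list. This is near the background, since 85.5% of all 750 genes called around the veins in the authors' deposited table were called in the appendage with the same sign. In all 6 the appendage value lay farther from 0. The share of all listed genes for which this holds was not computed. The appendage comparison called more genes in general, 34.7% of all listed genes against 5.5% around the veins. The difference between the tissues was not tested. Mmp12 was called around the veins, at 0.99 (false discovery rate 0.0309), but not in the appendage, at -0.58 (0.136), in the authors' deposited table. Signs also differed for other genes there, among them Adamts10, at -0.14 (0.781) around the veins and 0.53 (0.00788) in the appendage.

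**Figure D5:**
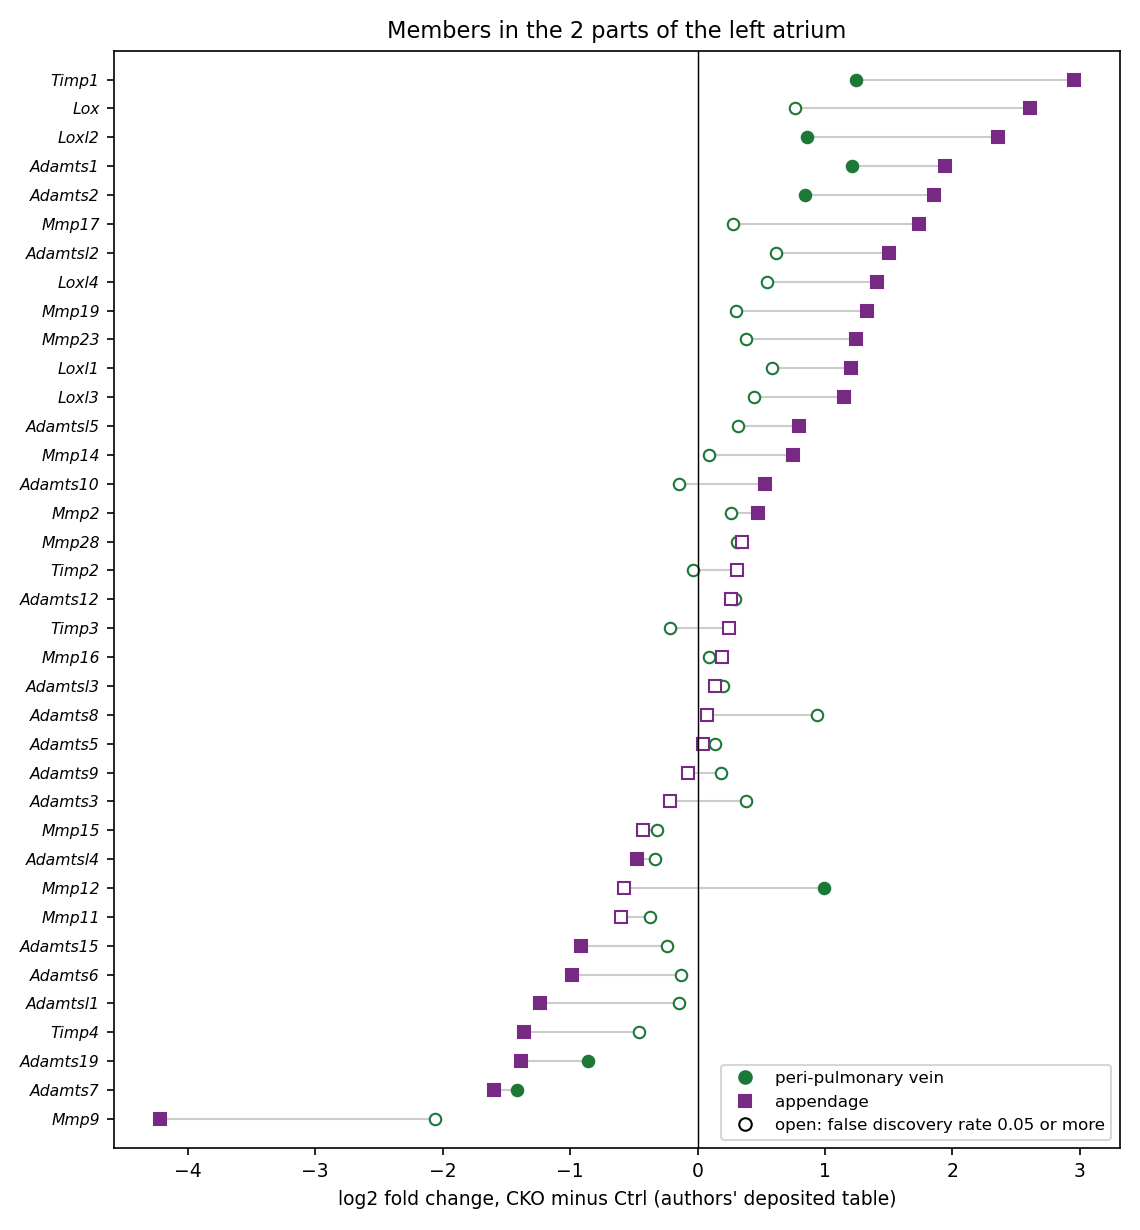
Log2 fold changes after Tbx5 deletion (CKO minus Ctrl) from the authors' deposited table for the 37 listed genes, in the peri-pulmonary vein tissue (green circles) and the appendage (purple squares), ordered by the appendage value; filled symbols have a false discovery rate under 0.05. Timp1 at 2.96 and Mmp9 at -4.22 mark the ends in the appendage, and most peri-pulmonary vein values lie nearer 0.

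Between the regions, 9 of the 37 genes were called in the authors' deposited table, against 12.2% of all listed genes, 6 higher and 3 lower around the veins, where all listed genes give 8.19% and 4.06%. The sign was read from Scgb1a1, the airway gene seen in the peri-pulmonary vein libraries, which stands at 13.8. Among the 6 genes called higher, the highest values were those of Adamts12 (1.52), Mmp19 (1.44) and Adamtsl3 (1.28), followed by Loxl2 (0.85), Timp2 (0.59) and Adamts2 (0.52), in the authors' deposited table. Lower around the veins there were Adamts8 (-2.83), a proteoglycanase known to slow vessel growth in culture, Mmp15 (-1.11) and Adamts15 (-0.67). Adamts7, the gene with the clearest loss, stood at -0.02 between the regions in the authors' deposited table (false discovery rate 0.975). This comparison draws on libraries of both tissues and so shares libraries with the deletion comparisons; which ones is not stated.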

How the data were processed

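RNA was measured in 10 peri-pulmonary vein libraries. Per the labels' protocols ribosomal RNA was removed and libraries were made with a TruSeq RNA v2 kit, whereas the labels give polyA RNA as the molecule. The submitters' processing notes name TopHat2 2.1.1, mm10, StringTie 1.3.3, edgeR 3.18.1, limma 3.32.10 and R 3.4.0. The authors' deposited gene table holds expected counts, estimated from coverage: all 545320 cells equalled coverage times length over 50 bases, rounded up per transcript and summed (within 0.5 counts). TPM comes from the deposited transcript files and was summed per gene. The authors' deposited table of comparisons gives log2 fold changes and false discovery rates, which are adjusted p-values, for 13646 genes; its model is not stated. A further 10 columns of the gene table match no sample described here and were not used. Per the file headers StringTie was told the reads were stranded, which the kit named does not mark, and 20 of the 55 genes overlap a gene on the opposite strand.

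Symbols were pooled over the 10 files, since a gene without reads can lack the reference name in a file (48 of 55 had it in all). Counts were already whole. edgeR 4.0.16 in R 4.3.3 kept 17752 genes (filterByExpr), scaled by TMM and ran the quasi-likelihood F test of CKO against Ctrl with no covariate, Benjamini-Hochberg adjusted over all genes with a threshold of 0.05. Each SE was obtained by dividing the log2 fold change by the root of its F statistic. DESeq2 1.42.0 and limma 3.58.1 served as alternatives, beside other scalings, filters, left-out libraries, the Xist level and the replicate number. The fit was tested on simulated data with known changes. It found 5 of 67 genes changed 1.5-fold, 31 of 67 changed 2-fold and 49 of 66 changed 4-fold. Of its 86 calls 1 was false. A gene without a call may therefore still have changed by such amounts. Genes were named by rule: those called or without overlap, the 2 with the highest TPM in each class, the 10 largest fold changes, and up to 4 called genes per list (or the 2 most abundant). Timp4, Adamts5, Adamts14, Adamts19 and, from the authors' deposited table, Adamtsl3 lie outside this rule and were chosen after their values were seen; untested genes are named to account for every member. The genes, lists and alternatives were chosen with earlier results of these data known. The mice are separate animals per the study's description, and same-numbered Ctrl and CKO libraries are not said to be paired. The total count per library limits precision for genes below about 1 CPM. A result for 1 gene of the partner lists is not reported here.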

Additional observations from a re-analysis of the deposited data

Results flagged for a closer look

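In groups of 4 to 6 libraries, a library that stands apart from the rest of its group by Dixon's criterion was looked for in 54 groups of values, where chance gives about 1 in 20, and 3 were found. Adamts2 was at 96.8 CPM in Ctrl 4, below the other Ctrl libraries at 133.7 to 138.5 CPM. Lox was at 100.3 CPM in CKO 5, above the other CKO libraries. Mmp12 was at 4.14 CPM in CKO 1, below the other CKO libraries, and without that library its adjusted p was 0.0441.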

How the results depend on the processing

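The main fit called 3 of these genes, 9 substrate and partner genes and 497 genes in all. DESeq2 called 7, 26 and 1132, and the Xist level as a covariate 5, 14 and 662. Among libraries with high Xist the counts were 3, 5 and 272, and among those with low Xist 0, 0 and 3. Each set held 2 Ctrl and 3 CKO libraries. Both libraries with airway transcripts, Ctrl 3 and CKO 4, were in the set with low Xist. Leaving out 1 library gave 1 to 4, 5 to 11 and 190 to 607, lowest without Ctrl 2 for the first and last and without Ctrl 4 for the lists; 221, 237, 305 and 331 genes were called in all without Ctrl 1, Ctrl 4, CKO 1 and CKO 2. The replicate number as a block gave 0, 1 and 37. In that fit CKO 5 and CKO 6, which have no Ctrl library of the same number, add nothing to the comparison. The blocks also leave less information for estimating scatter. Deviations of same-numbered libraries correlated at 0.0313, 0.0876, -0.319 and 0.0894. These values show no sign of a pairing by number, but they cannot exclude one, since differences particular to single libraries can hide it. Library size without TMM moved the median of all genes to -0.09 and the split of all calls from 274 higher and 223 lower to 227 and 288. An interaction of genotype with the Xist group, added after seeing the data, passed for 1 of 17752 genes and 0 of the 41 (2 at an unadjusted p under 0.05, edgeR).

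Of 876 values of named genes under alternatives, 807 kept direction and side of the threshold and 13 changed sign, all of genes that were not called; the cause was not tested. With high Xist alone these were Adamts10 (0.0145), Adamts15 (0.0485), Timp3 (0.0290) and Mmp14 (-0.0117). Mmp3 was -0.49 with limma-voom and -0.45 with the block. Timp2 was 0.0202 without a filter, 0.0843 without Ctrl 3 and CKO 4, and 0.0850 with low Xist. Leaving out 1 library took Mmp14 from -0.0203 (without Ctrl 4) to 0.182 and Timp2 from -0.112 to 0.0819, with sign changes of Timp2 without Ctrl 3, CKO 2 or CKO 3. Counting depth left 14 of the 55 genes untested.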
